A study of Arabidopsis thaliana with 8 samples.

Results

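The genes described here make or carry the salicylate signal in Arabidopsis thaliana. Chosen by name, they are 10: EDS1 (AT3G48090), PAD4 (AT3G52430), SAG101 (AT5G14930), ICS1 (AT1G74710), CBP60g (AT5G26920), SARD1 (AT1G73805), NPR1 (AT1G64280), PR1 (AT2G14610), PR2 (AT3G57260) and PR5 (AT1G75040). The expression table holds 22281 genes, and 9 of the 10 have a row in it. PR1 was not analysed here. Of the 9, 8 had a mean of 1 FPKM or more over all libraries and were among the 17706 genes tested, and PR2 lay under that level. FPKM divides a gene's fragments by its length and by a measure of library size, so levels of different genes can be set side by side.

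Poly-A RNA was sequenced from reproductive tissue in the Col-0 strain, made up of inflorescence meristems, floral meristems and young flowers up to stage 8. There were 4 libraries of the lsh1 lsh3 lsh4 triple mutant (replicates 5 to 8) and 4 of wild type (replicates 1 to 4). All plants were kept in long days, with light for 16 h and darkness for 8 h, and at temperatures of 20 to 22 °C. LSH1, LSH3 and LSH4 encode plant-specific proteins of the ALOG family, and the comparison asks which transcripts differ when all 3 are mutated. The alleles, the age of the plants and the number of plants in a sample were not stated in the labels. The replicates are called independent without mention of separate plants or cultures, so p-values measure only how far these samples spread, and that spread may be technical. In such bulk tissue, fewer cells of a type and less RNA per cell cannot be told apart.

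Salicylate is a small phenolic hormone of plant immunity, made in leaves under attack mainly in the plastid from isochorismate. EDS1 forms alternative complexes with its relatives PAD4 and SAG101, which relay signals from intracellular immune receptors. The related transcription factors CBP60g and SARD1 switch on ICS1, which encodes the plastid enzyme that makes isochorismate. NPR1 binds salicylate and, together with TGA transcription factors, turns on genes for secreted pathogenesis-related proteins such as PR1, PR2 and PR5.

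Library totals differed little, with FPKM sums of 826022 to 906962 in the mutant and 850904 to 890937 in wild type, but these sums are not depths, and the number of reads is unknown. The libraries did not fall into 2 tight groups. The first principal component of log2(FPKM + 1), with 43.0% of the variance, placed the mutant libraries between 2.67 and 39.0. Wild type replicates 3 and 4 lay near them, at -0.99 and 9.08, whereas replicates 1 and 2 stood apart at -55.0 and -24.2. The transcripts of the mutated genes were lower in the mutant for LSH4 (5.51 ± 1.42 against 22.1 ± 2.08 FPKM, mean ± SD, n = 4 each, limma adjusted p = 0.00773) and LSH1 (2.87 ± 0.967 against 10.1 ± 1.96 FPKM, limma adjusted p = 0.0423). LSH3 had 13.5 ± 2.35 FPKM in the mutant and 17.2 ± 5.28 FPKM in wild type, with limma adjusted p = 0.607. The meristem genes STM, LFY and AP1 were present in all libraries at 10.2 FPKM or more. STM averaged 66.7 ± 3.25 FPKM in the mutant and 87.0 ± 9.41 FPKM in wild type, without overlap (log2 fold change -0.37, limma adjusted p = 0.145, and 0.0384 with limma library weights). Of all tested genes, 3.74% were lower in the mutant without overlap. The authors' deposited table lists STM with a log2 fold change of -0.38 and an adjusted p of 0.00745. The part of STM in the salicylate values was not tested. The stem cell markers WUS and CLV3 stayed at or below 1.70 FPKM.

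No salicylate gene passed the test between the genotypes. In 6 of the 8 tested genes, EDS1, PAD4, SAG101, CBP60g, SARD1 and NPR1, the values of wild type replicates 1 and 2 were the highest of the 8 libraries, and the other 6 libraries lay below them. ICS1 was nearly level everywhere. PR5 varied widely in both genotypes. Of all genes tested, 0.186% passed limma's test at a Benjamini-Hochberg adjusted p under 0.05 (0.136% higher and 0.0508% lower in the mutant), so 0 calls among 8 genes is near that background. At an unadjusted limma p under 0.05 the count was 0 higher and 1 lower, SAG101, where 6.91% of all genes were higher and 5.62% lower, 12.5% in all. That count of 1 lower became 5 when either replicate 3 or replicate 4 of wild type was left out. Over all genes, 1254 of 17734 were lower at that level without replicate 3 and 961 of 17742 without replicate 4. The count for the salicylate genes was 0 without wild type replicate 1 or 2 or mutant replicate 5, 7 or 8.

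**Figure D1:**
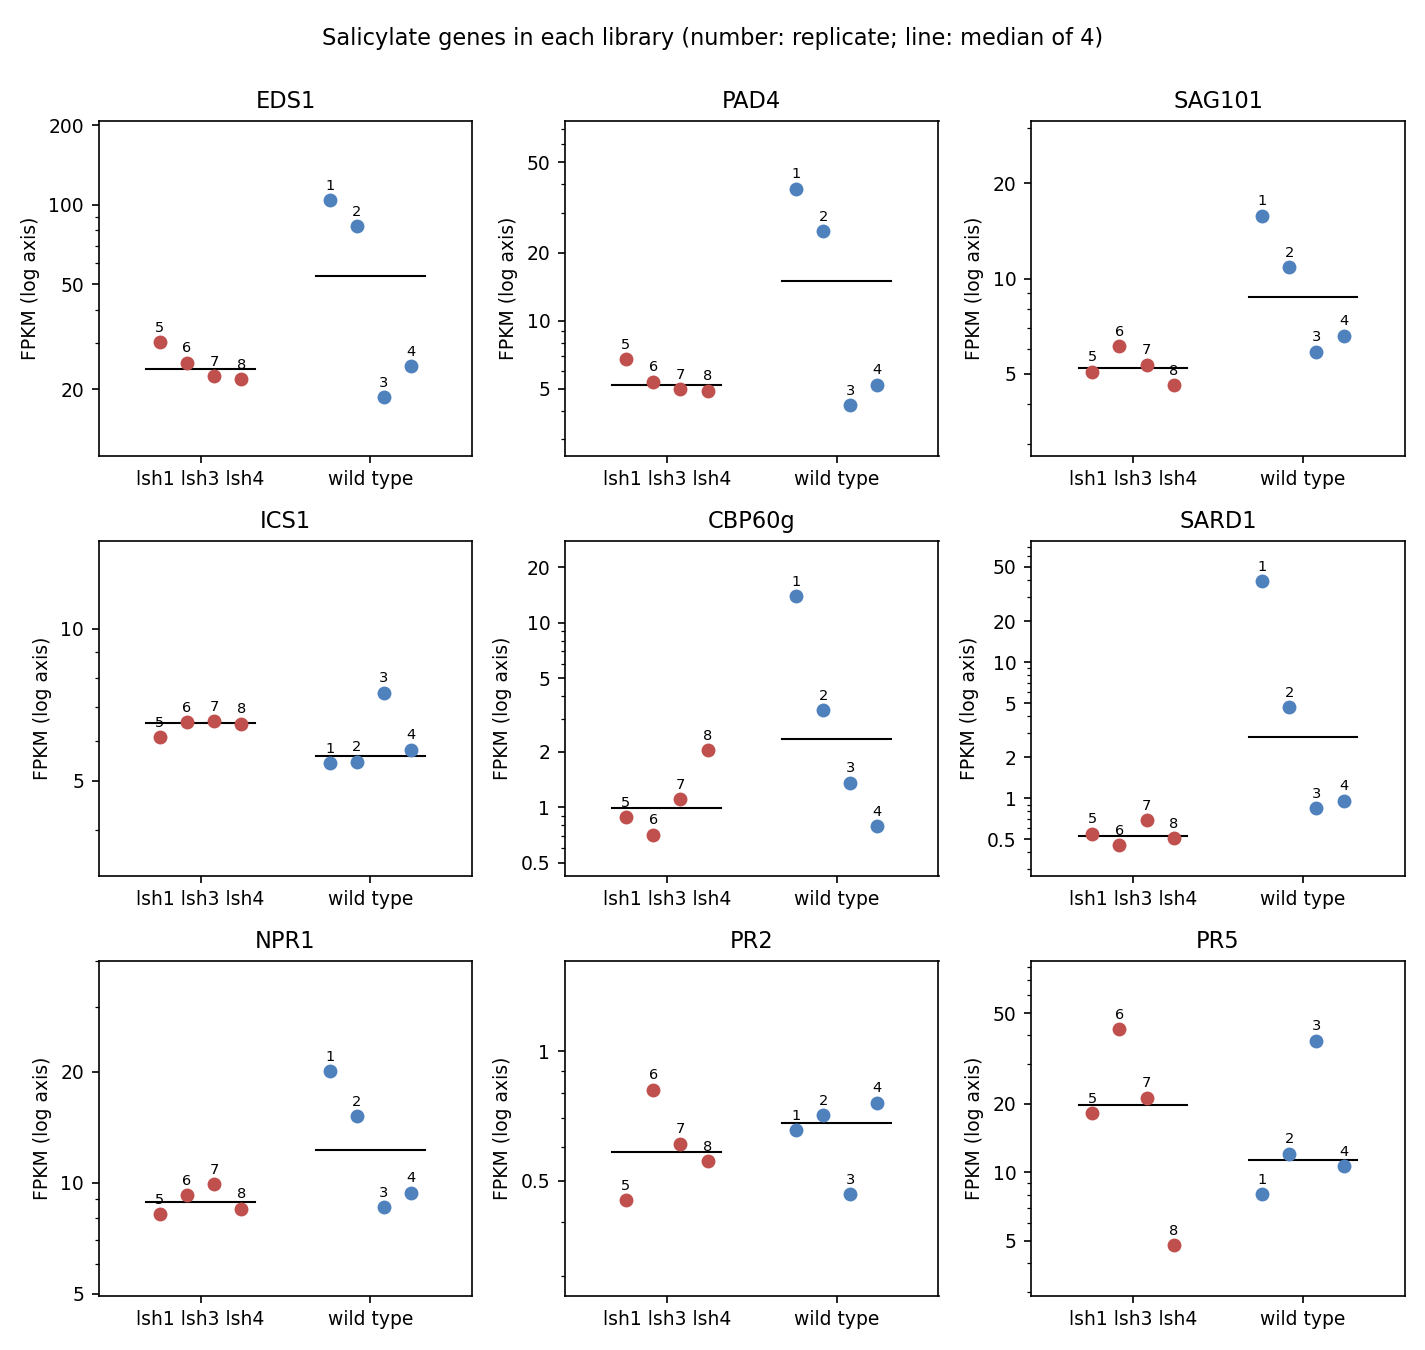
FPKM (log axis) of the 9 salicylate genes in the expression table, one panel a gene, with the 4 lsh1 lsh3 lsh4 libraries on the left and the 4 wild type libraries on the right; each point is a library with its replicate number, and lines mark group medians. For SARD1 the mutant libraries lie between 0.450 and 0.691 FPKM and wild type replicate 1 reaches 39.1 FPKM, whereas ICS1 stays between 5.41 and 7.46 FPKM in all 8 libraries.

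Promoter sequences of 3 genes are shown, since their results differ: SARD1, whose level spread most between the wild type libraries, EDS1, which stands at the head of the pathway, and ICS1, the target of SARD1, which was level. Each runs 5′ to 3′ on the strand of its gene over the 250 bases before the annotated gene start, from RefSeq assembly TAIR10.1. SARD1 is at chr1:27749249-27749498 (minus strand), EDS1 at chr3:17758148-17758397 (minus strand) and ICS1 at chr1:28070045-28070294 (plus strand), and no annotated exon overlaps these windows. Capitals mark matches, on either strand, to TTGAC (the core bound by WRKY factors), TGACG (the core bound by TGA factors), GAAATTT (a sequence bound by CBP60g and SARD1) or CGCG (the core bound by CAMTA factors).
SARD1: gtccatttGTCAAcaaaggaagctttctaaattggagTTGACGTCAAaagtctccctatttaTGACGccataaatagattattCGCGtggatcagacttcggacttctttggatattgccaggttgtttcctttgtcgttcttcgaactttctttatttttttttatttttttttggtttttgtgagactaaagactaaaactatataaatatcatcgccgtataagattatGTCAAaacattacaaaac
EDS1: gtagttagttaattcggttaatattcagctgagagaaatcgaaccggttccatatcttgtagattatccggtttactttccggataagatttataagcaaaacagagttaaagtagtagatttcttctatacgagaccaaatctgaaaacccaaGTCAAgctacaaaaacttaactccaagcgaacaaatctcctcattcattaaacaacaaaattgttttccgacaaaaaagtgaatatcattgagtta
ICS1: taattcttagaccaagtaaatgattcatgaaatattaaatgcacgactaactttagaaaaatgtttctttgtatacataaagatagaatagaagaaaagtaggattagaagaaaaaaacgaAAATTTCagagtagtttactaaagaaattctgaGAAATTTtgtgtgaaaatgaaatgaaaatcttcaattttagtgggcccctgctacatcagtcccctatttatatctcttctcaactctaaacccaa

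The SARD1 window held 4 matches to TTGAC, with first bases 242, 213, 208 and 18 bases before the gene start. It also held 3 matches to TGACG, at 212, 209 and 188, of which those at 212 and 209 overlap the TTGAC matches, and 1 match to CGCG at 167. EDS1 had 1 match to TTGAC, at 96. ICS1 had 2 matches to GAAATTT, at 129 and 96, and none to the other motifs. Over the promoter windows of 27443 genes, 44.9% held TTGAC, 18.6% TGACG, 12.5% GAAATTT and 10.1% CGCG. Of the 10 salicylate genes, 5 held TTGAC (EDS1, SAG101, SARD1, PR1 and PR5), 1 held TGACG (SARD1), 1 held GAAATTT (ICS1) and 2 held CGCG (SARD1 and PR5), while the windows of PAD4, CBP60g, NPR1 and PR2 held none of these letters. A match describes the sequence only, and factor binding was not measured.

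EDS1 encodes the lipase-like protein on which both immune complexes are built. It had 30.1, 25.2, 22.5 and 21.9 FPKM in mutant replicates 5 to 8, against 104, 83.0, 18.7 and 24.4 FPKM in wild type replicates 1 to 4. The mutant libraries were alike, and the wild type ones fell into a high pair and a low pair, with the lowest value of all 8 libraries in wild type replicate 3. The log2 fold change was -0.83 (SE 0.51, 95% interval -2.0 to 0.33, limma adjusted p = 0.532). The highest wild type value was 5.56 times the lowest, against 1.38 times in the mutant. On the log2(FPKM + 1) scale the SD of EDS1 was 0.20 in the mutant and 1.21 in wild type, and 98.9% of all tested genes had a smaller wild type SD.

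PAD4, the partner of EDS1 in basal resistance, had the same shape at a lower level. Its values were 6.76, 5.39, 4.99 and 4.91 FPKM in mutant replicates 5 to 8 and 38.2, 24.8, 4.23 and 5.22 FPKM in wild type replicates 1 to 4. The high and low wild type libraries were the same as for EDS1, and the genotypes overlapped (log2 fold change -1.06, SE 0.61, 95% interval -2.46 to 0.34, limma adjusted p = 0.510). Its wild type values spanned 9.03 times, and its mutant values 1.38 times.

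SAG101, the partner of EDS1 in the receptor branch that leads to cell death, had 5.08, 6.12, 5.34 and 4.59 FPKM in mutant replicates 5 to 8, against 15.8, 10.9, 5.87 and 6.59 FPKM in wild type replicates 1 to 4. Mutant replicates 5, 7 and 8 lay below every wild type library, and mutant replicate 6 lay between wild type replicates 3 and 4. The log2 fold change of SAG101 was -0.69 (SE 0.27, 95% interval -1.29 to -0.09), with an unadjusted p of 0.0298 that did not hold over all genes (limma adjusted p = 0.348). The exact 2-sided permutation test over all 70 relabellings gave p = 0.0571, against a smallest possible value of 0.0286.

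ICS1 encodes isochorismate synthase. Its level was 6.11, 6.53, 6.56 and 6.49 FPKM in mutant replicates 5 to 8, and 5.41, 5.46, 7.46 and 5.76 FPKM in wild type replicates 1 to 4. The libraries highest for EDS1 and PAD4 were the lowest for ICS1, and the genotypes overlapped. Means were 6.42 ± 0.211 FPKM in the mutant and 6.02 ± 0.973 FPKM in wild type (SD, n = 4 each). The log2 fold change of ICS1 was 0.09 (SE 0.11, 95% interval -0.16 to 0.34, limma adjusted p = 0.767). The log2 SD of ICS1 in the mutant was 0.04, and 2.91% of tested genes had a smaller one. In wild type it was 0.19, and 62.9% of tested genes had a smaller one.

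CBP60g and SARD1, the pair of related activators of ICS1, were scarce in the mutant. CBP60g had 0.883, 0.708, 1.11 and 2.04 FPKM in mutant replicates 5 to 8, against 14.0, 3.35, 1.35 and 0.789 FPKM in wild type replicates 1 to 4. Wild type replicate 1 stood far above the rest and wild type replicate 4 lay among the mutant libraries (log2 fold change -0.93, SE 0.60, 95% interval -2.29 to 0.42, limma adjusted p = 0.547). SARD1 had 0.549, 0.450, 0.691 and 0.507 FPKM in mutant replicates 5 to 8, against 39.1, 4.65, 0.844 and 0.959 FPKM in wild type replicates 1 to 4.

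SARD1 was the only tested salicylate gene whose genotypes did not overlap, each mutant library lying below each wild type library; 7.89% of all tested genes had no overlap, and 3.74% had none with the mutant lower. Its log2 fold change was -1.79 (SE 0.87, 95% interval -3.77 to 0.19, limma adjusted p = 0.442), and the exact 2-sided permutation test gave p = 0.0286, the smallest that 70 relabellings allow. Without wild type replicates 1 and 2, SARD1 had a mean under 1 FPKM and would not have been tested, so it entered the test through those libraries. Every mutant library was under 1 FPKM, so the filter itself favoured a lower mutant level. The lack of overlap and the permutation p are therefore not independent support for a difference. In wild type the highest value of SARD1 was 46.4 times the lowest, and 99.9% of tested genes had a smaller wild type log2 SD than its 2.07. The authors' deposited table, which lists 3.69% of the genes of the expression table, holds SARD1 with a log2 fold change of -4.37 and an adjusted p of 0.00856. No other salicylate gene of the 10 is in the authors' deposited table.

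NPR1, the salicylate receptor and co-activator, had 8.22, 9.26, 9.90 and 8.49 FPKM in mutant replicates 5 to 8, against 20.0, 15.1, 8.57 and 9.40 FPKM in wild type replicates 1 to 4. Wild type replicates 1 and 2 were again highest, and replicates 3 and 4 lay within the mutant range. The log2 fold change of NPR1 was -0.45 (SE 0.24, 95% interval -0.98 to 0.09, limma adjusted p = 0.474). In the BTB-ankyrin family to which NPR1 belongs, the boundary genes BOP1 and BOP2 had values that did not overlap between the genotypes. BOP1 averaged 3.01 ± 1.06 FPKM in the mutant and 0.618 ± 0.278 FPKM in wild type (log2 fold change 1.29, limma adjusted p = 0.0853), and BOP2 averaged 12.4 ± 4.87 FPKM in the mutant and 5.12 ± 1.64 FPKM in wild type (log2 fold change 1.09, limma adjusted p = 0.185). Of all tested genes, 4.15% were higher in the mutant without overlap. The authors' deposited table lists BOP1 with a log2 fold change of 2.27 (adjusted p of 6.02e-06) and BOP2 with 1.27 (adjusted p of 0.00373).

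The genes for secreted proteins at the end of the pathway were not highest in wild type replicates 1 and 2. PR2, a beta-1,3-glucanase, was near the lower limit in every library, with 0.450, 0.813, 0.610 and 0.555 FPKM in mutant replicates 5 to 8 and 0.655, 0.710, 0.465 and 0.760 FPKM in wild type replicates 1 to 4 (exact 2-sided permutation p = 0.657). Wild type replicates 1 and 2 did not stand out for PR2. PR5, a thaumatin-like protein, had 18.2, 42.6, 21.3 and 4.79 FPKM in mutant replicates 5 to 8, against 8.04, 12.1, 37.9 and 10.6 FPKM in wild type replicates 1 to 4. The highest PR5 value was in mutant replicate 6 and the lowest in mutant replicate 8, so the genotypes overlapped completely (log2 fold change 0.25, SE 0.64, 95% interval -1.20 to 1.71, limma adjusted p = 0.897). PR5 was also the gene that varied most within the mutant, by 8.89 times, and its log2 SD there, 1.21, was above that of 99.7% of tested genes.

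Ordered by mean level in the mutant, the genes ran from EDS1 (24.9 ± 3.77 FPKM) and PR5 (21.7 ± 15.7 FPKM) through NPR1 (8.97 ± 0.761), ICS1 (6.42 ± 0.211), PAD4 (5.51 ± 0.858) and SAG101 (5.28 ± 0.639) to CBP60g (1.18 ± 0.595), PR2 (0.607 ± 0.153) and SARD1 (0.549 ± 0.102; SD, n = 4 each). Ranges of neighbours in this order overlapped in the mutant libraries except between NPR1 and ICS1 and between SAG101 and CBP60g. In wild type the means were 57.5 ± 42.5 FPKM for EDS1, 17.2 ± 13.9 for PR5, 13.3 ± 5.36 for NPR1, 6.02 ± 0.973 for ICS1, 18.1 ± 16.4 for PAD4, 9.78 ± 4.58 for SAG101, 4.86 ± 6.16 for CBP60g, 0.647 ± 0.129 for PR2 and 11.4 ± 18.6 for SARD1, with SDs above the mean for CBP60g and SARD1.

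The rank of the libraries was described after the values were seen. Wild type replicates 1 and 2 held both top places in 6 of the 8 tested salicylate genes, against 9.47% of all tested genes. Wild type replicate 1 was highest in 6 of 8, against 17.2% of all tested genes. When wild type replicates 3 and 4 alone were set against the 4 mutant libraries, the log2 fold changes were 0.20 for EDS1, 0.18 for PAD4, -0.21 for SAG101, -0.028 for ICS1, 0.054 for CBP60g, -0.0047 for NPR1 and -0.23 for PR5. The signs of EDS1, PAD4, ICS1, CBP60g and PR5 thus turned, and limma adjusted p-values ran from 0.828 to 0.995. No gene of the 17635 then tested was called by limma, and 782 genes with higher and 519 with lower values had an unadjusted p under 0.05. SARD1 in wild type replicates 3 and 4 was still above each mutant library, by far less than in replicates 1 and 2.

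**Figure D2:**
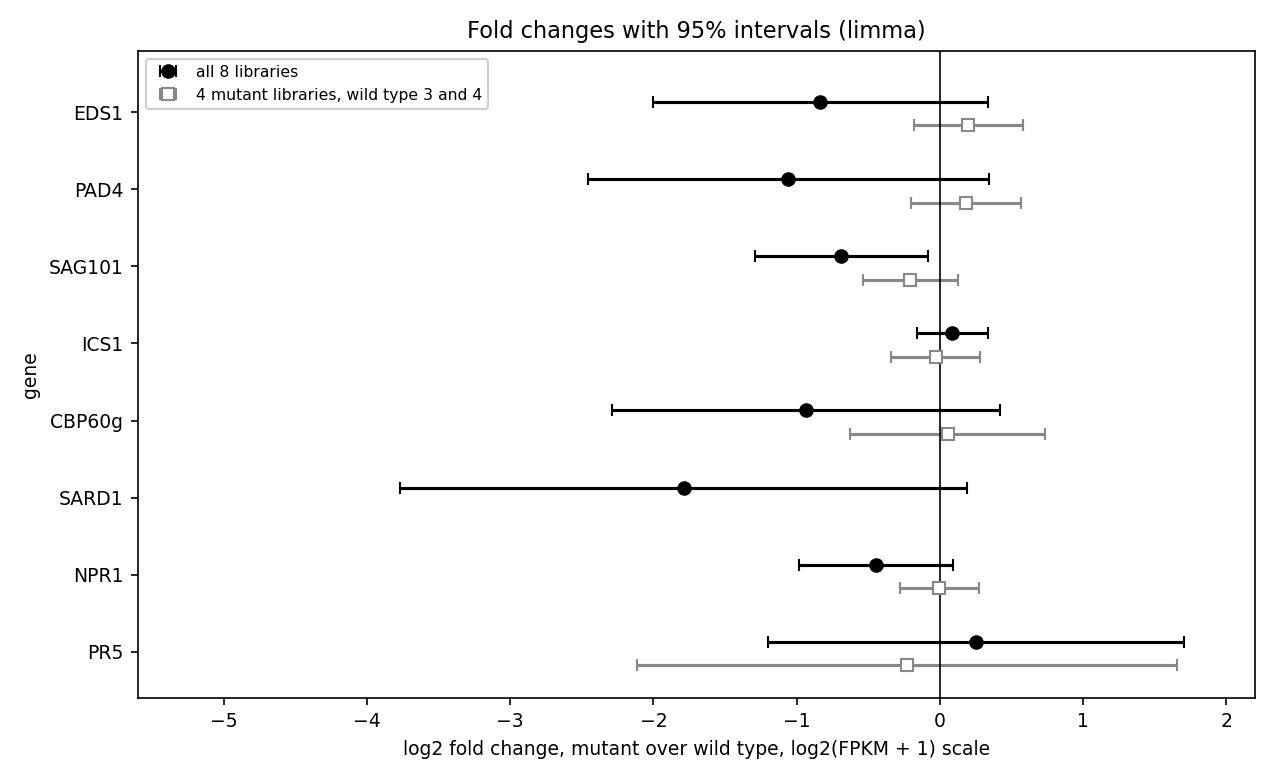
Log2 fold change of mutant over wild type on the log2(FPKM + 1) scale for the 8 tested salicylate genes, with 95% intervals from limma; filled circles use all 8 libraries and open squares the 4 mutant libraries with wild type replicates 3 and 4. All intervals but that of SAG101 with all libraries (-1.29 to -0.09) span 0, and SARD1 has no open square because its mean there was under 1 FPKM.

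A fit that lets limma weight each library by its quality gave 3 calls among the salicylate genes, all lower in the mutant. They were EDS1 (log2 fold change -1.43, limma adjusted p = 0.0430), PAD4 (-1.68, limma adjusted p = 0.0417) and SAG101 (-0.80, limma adjusted p = 0.0257). In that fit mutant replicate 7 and wild type replicate 2 had weights of 4.38 and 4.55 and every other library 0.958 or less, and 1265 genes were called higher and 1058 lower.

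Among other genes of the pathway, 57 were listed in 7 groups, 53 have a row in the expression table and 40 were tested. None of the 40 passed limma's test (smallest adjusted p = 0.17), and an unadjusted p under 0.05 was reached by 3 genes with higher and 5 with lower values in the mutant, where 6.91% and 5.62% of all tested genes did so. The count of 5 lower ran from 1 (without wild type replicate 2, mutant replicate 5 or mutant replicate 8) to 11 (without wild type replicate 3), and it was 3 when wild type replicate 1 or mutant replicate 7 was left out. Leaving out replicate 4 of wild type gave a count of 8. Pathway genes tested were 43 without wild type replicate 3 and 41 without replicate 4. Over all genes, 1254 of 17734 and 961 of 17742 were lower at that level in these fits. The count of 3 higher became 5 without wild type replicate 1 or mutant replicate 6. Their log2 fold changes were negative in 28 and positive in 12, with a median of -0.20, while 52.4% of all tested genes were negative and the median of all was -0.01. Wild type replicates 1 and 2 held both top places in 21 of the 40. With wild type replicates 3 and 4 only, 14 were negative and 27 positive of the 41 then tested.

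**Figure D3:**
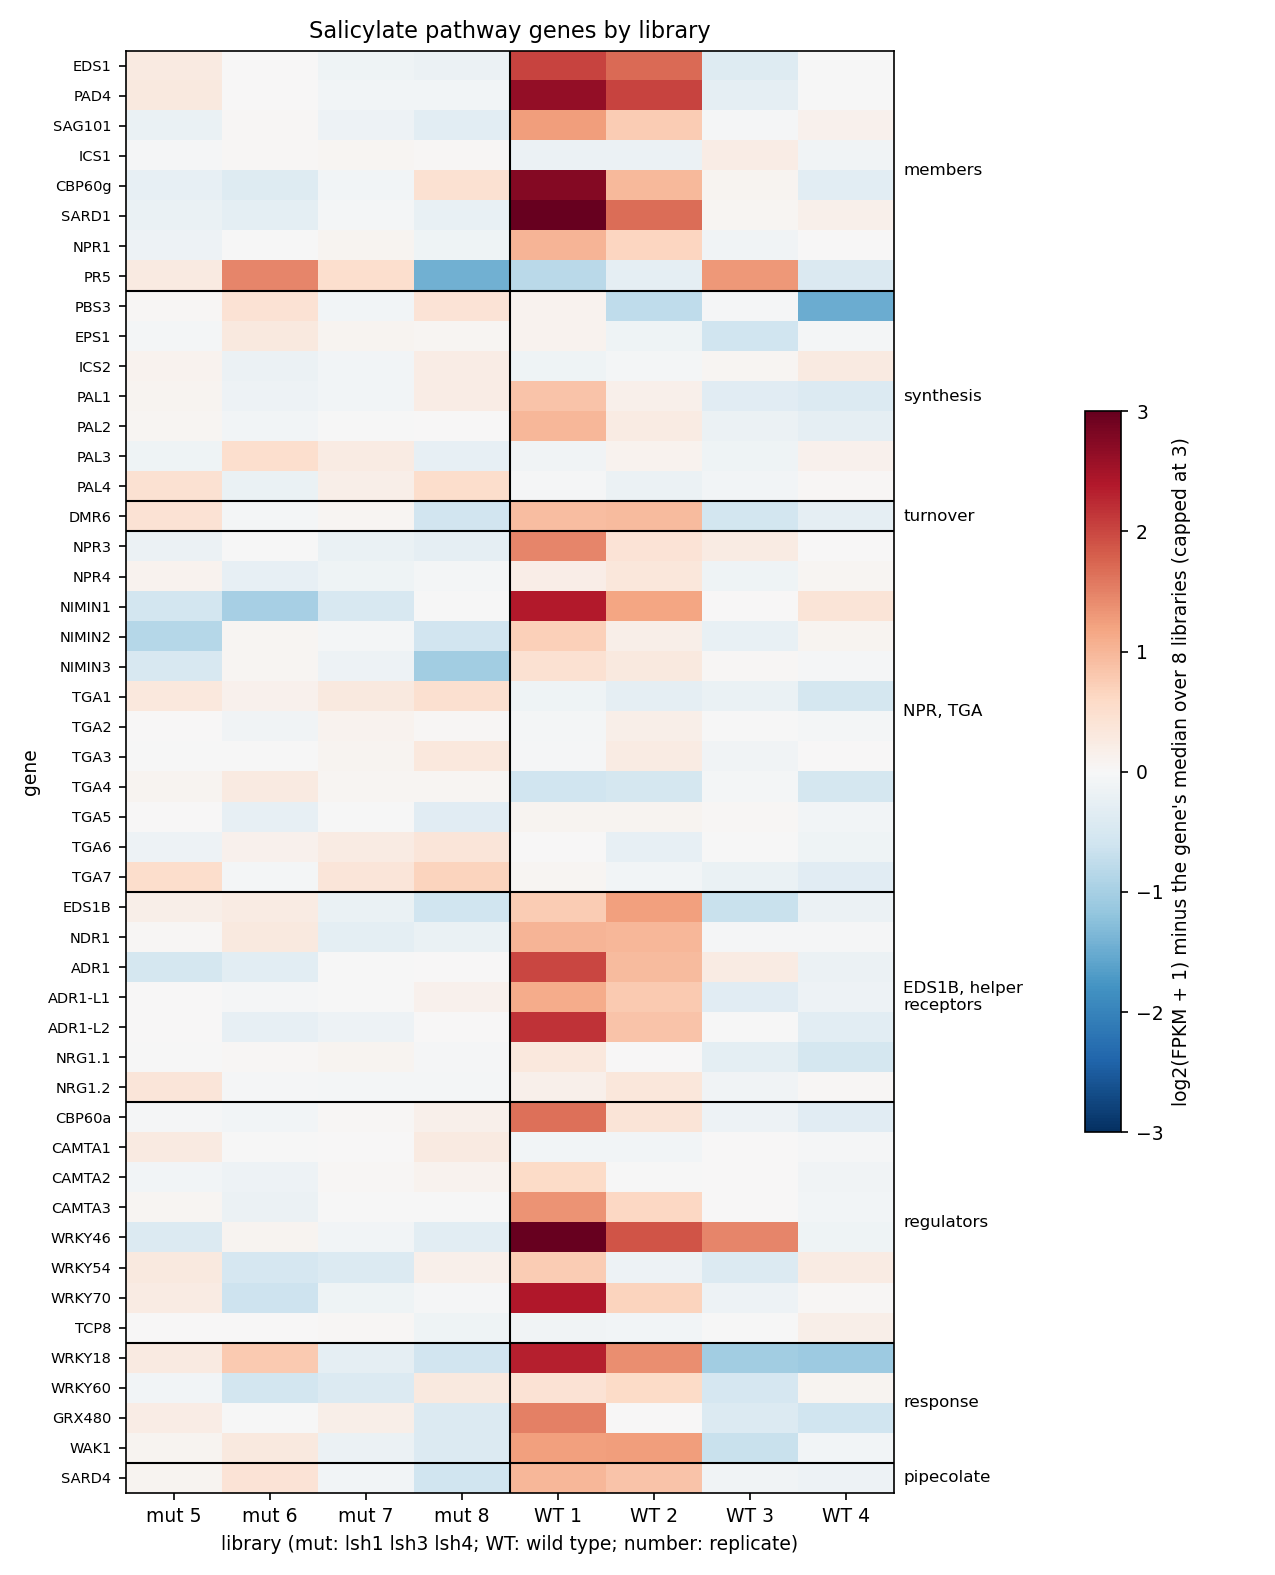
Level of each tested salicylate gene and each of the 40 other pathway genes in the 4 mutant (mut) and 4 wild type (WT) libraries, as log2(FPKM + 1) minus the gene's median over the 8 libraries, with groups of genes separated by lines. Wild type replicates 1 and 2 are red for most regulators and receptors, from EDS1 and PAD4 to ADR1 and WRKY46, and pale or blue for ICS1, PR5 and TGA4; SARD1 and WRKY46 exceed the colour limit of 3 in wild type replicate 1.

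Other enzymes of salicylate synthesis had no common direction, and the exporter gene EDS5 was under the level for testing. The 7 tested were PBS3, EPS1, ICS2, PAL1, PAL2, PAL3 and PAL4. Of these, 3 had negative and 4 positive log2 fold changes (median 0.09), and 0 passed limma's test or an unadjusted p of 0.05. Of the 7, 6 were positive (median 0.26) with wild type replicates 3 and 4 only. An unadjusted p under 0.05 was reached by 4 of them, PBS3, EPS1, PAL1 and PAL2. In that fit 782 of all 17635 genes tested were higher at that level. PBS3, which joins isochorismate to glutamate, had 8.56, 11.5, 7.74 and 11.3 FPKM in mutant replicates 5 to 8 and 8.92, 4.49, 7.98 and 2.30 FPKM in wild type replicates 1 to 4. The mutant values were mostly higher but overlapped with wild type (log2 fold change 0.75, SE 0.33, limma adjusted p = 0.400). EPS1, which releases salicylate from that conjugate, averaged 17.0 ± 1.91 FPKM in the mutant and 14.2 ± 2.94 FPKM in wild type (log2 fold change 0.26, limma adjusted p = 0.511). ICS2, the homologue of ICS1, was level at 1.99 ± 0.371 FPKM in the mutant and 2.02 ± 0.392 FPKM in wild type (log2 fold change -0.01, limma adjusted p = 0.977). Its coding sequence is 79.9% identical to that of ICS1 over the aligned bases, so reads could be split between them in the counting.

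Of 7 genes for salicylate breakdown and conjugation, 1 was tested. DMR6, a salicylate hydroxylase, averaged 3.94 ± 1.38 FPKM in the mutant and 5.56 ± 3.32 FPKM in wild type (log2 fold change -0.30, limma adjusted p = 0.778). UGT74F2, a salicylate glucosyltransferase, was under the level for testing and is named because of its values: 0.899, 0.502, 0.506 and 3.02 FPKM in mutant replicates 5 to 8, against 0.206, 0.145, 0.218 and 0.134 FPKM in wild type replicates 1 to 4. All mutant libraries lay above all wild type libraries, the pattern for which it was picked. Of all tested genes, 4.15% were higher in the mutant without overlap, and for genes under the level for testing that share was not computed. The authors' deposited table gives UGT74F2 a log2 fold change of 2.81 and an adjusted p of 0.00225.

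Partners of NPR1 went both ways. Of 12 tested NPR, NIMIN and TGA genes, 6 had positive and 6 negative log2 fold changes, with 3 on each side at an unadjusted p under 0.05, and 2 higher and 2 lower without overlap between the genotypes, where 4.15% and 3.74% of all tested genes were. TGA1, a transcription factor that works with NPR1, had 2.30, 1.94, 2.25 and 2.73 FPKM in mutant replicates 5 to 8 and 1.42, 1.22, 1.32 and 0.841 FPKM in wild type replicates 1 to 4. Every mutant library was above every wild type library (log2 fold change 0.59, SE 0.15, limma adjusted p = 0.17), and wild type replicates 1 and 2 did not stand apart. TGA4, its closest relative, averaged 4.03 ± 0.397 FPKM in the mutant and 2.50 ± 0.660 FPKM in wild type, also without overlap (log2 fold change 0.54, SE 0.15, limma adjusted p = 0.191).

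With wild type replicates 3 and 4 only, TGA1 kept a log2 fold change of 0.67 (limma adjusted p = 0.507) and TGA4 one of 0.40 (limma adjusted p = 0.692). The authors' deposited table lists TGA1 with a log2 fold change of 0.94 (adjusted p of 0.00662) and TGA4 with 0.69 (adjusted p of 0.0377). Lower without overlap, and named for that reason after their values were seen, were NIMIN1 and NPR3. NIMIN1, whose protein binds NPR1 and restrains it, had 4.14, 2.75, 4.35 and 6.45 FPKM in mutant replicates 5 to 8, against 37.9, 15.9, 6.56 and 8.76 FPKM in wild type replicates 1 to 4 (log2 fold change -1.50, SE 0.47, limma adjusted p = 0.248). Without wild type replicates 1 and 2, its log2 fold change was -0.71. The authors' deposited table lists NIMIN1 with a log2 fold change of -1.97 and an adjusted p of 0.00862. NPR3, a salicylate receptor that acts as a co-repressor, averaged 6.48 ± 0.594 FPKM in the mutant and 12.1 ± 6.71 FPKM in wild type (log2 fold change -0.69, limma adjusted p = 0.369).

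Receptors and helpers that act with EDS1 had no call unless libraries were weighted, and the direction of the group turned with the wild type libraries used. In the group of EDS1B, NDR1, and the ADR1 and NRG1 helper receptors, 6 of 7 log2 fold changes were negative (median -0.39), 0 passed limma's test, and 1 was lower at an unadjusted p under 0.05. On wild type replicates 3 and 4 alone, 2 of 7 were negative and 5 positive (median 0.08). The gene lower at an unadjusted p under 0.05, ADR1, had 4.37, 5.19, 6.68 and 6.72 FPKM in mutant replicates 5 to 8 and 29.8, 13.8, 8.16 and 5.78 FPKM in wild type replicates 1 to 4. Its wild type values were spread over a wide range that reached into the mutant one (log2 fold change -0.96, SE 0.42, limma adjusted p = 0.391). NDR1, a membrane protein needed by another class of immune receptors, averaged 12.6 ± 2.57 FPKM in the mutant and 19.6 ± 8.29 FPKM in wild type (log2 fold change -0.52, limma adjusted p = 0.478). With limma library weights NDR1 had a log2 fold change of -0.95 (limma adjusted p = 0.0320). EDS1B, the near copy of EDS1, had 1.23 ± 0.558 FPKM in the mutant and 2.23 ± 1.82 FPKM in wild type (log2 fold change -0.39, limma adjusted p = 0.724), and with 84.0% identity to EDS1 over the aligned coding bases its reads could be split in the counting.

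Of 8 tested regulators of ICS1 and CBP60g transcription, 7 had negative log2 fold changes (median -0.30), 0 passed limma's test and 1 was lower at an unadjusted p under 0.05. Set against wild type replicates 3 and 4 only, 5 of 8 were negative (median -0.02). WRKY46, a WRKY factor of the basal defence response, had 1.48, 2.48, 2.16 and 1.68 FPKM in mutant replicates 5 to 8, against 84.2, 11.3, 8.13 and 2.01 FPKM in wild type replicates 1 to 4. Like SARD1 it was far highest in wild type replicate 1, but wild type replicate 4 lay among the mutant libraries (log2 fold change -2.15, SE 0.84, limma adjusted p = 0.356). The authors' deposited table gives WRKY46 a log2 fold change of -3.76 and an adjusted p of 0.0103. CAMTA1, a calmodulin-binding factor of the family that restrains salicylate synthesis, averaged 26.8 ± 2.93 FPKM in the mutant and 23.3 ± 0.791 FPKM in wild type (log2 fold change 0.19, limma adjusted p = 0.408).

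All 4 tested salicylate response genes had negative log2 fold changes (median -0.34), with 0 past limma's test or an unadjusted p of 0.05. With wild type replicates 3 and 4 only, WRKY18, WRKY60 and WAK1 had positive log2 fold changes (1.12, 0.02 and 0.33), and GRX480 was under the level for testing. ACD6 was tested in its place (log2 fold change 0.61). It entered through mutant replicate 8, at 4.38 FPKM, so the filter itself favoured a higher mutant level. Of the 4 genes then tested, 1, WRKY18, had an unadjusted p under 0.05 (limma adjusted p = 0.540). In that fit 782 of all 17635 genes tested were higher at that level. WRKY60, a WRKY repressor, averaged 2.72 ± 1.0 FPKM in the mutant and 3.76 ± 1.43 FPKM in wild type (log2 fold change -0.34, limma adjusted p = 0.634). WAK1, a wall-associated kinase, had 38.9, 45.6, 32.6 and 27.5 FPKM in mutant replicates 5 to 8 and 87.6, 89.8, 22.7 and 34.8 FPKM in wild type replicates 1 to 4. The high wild type pair was again replicates 1 and 2, and replicate 3 was the lowest of all 8 (log2 fold change -0.48, limma adjusted p = 0.668). SARD4, an enzyme of the pipecolate pathway of systemic immunity, averaged 11.2 ± 3.35 FPKM in the mutant and 16.3 ± 7.10 FPKM in wild type (log2 fold change -0.45, limma adjusted p = 0.588). TLP-3, the homologue of PR5 with 79.4% identity over the aligned coding bases, had a log2 fold change of 0.04.

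Among the markers of other states, those of touch, wounding and early stress were high in the same libraries. Genes of touch, wounding and early stress were highest in wild type replicate 1 in 11 of 11 tested, and wild type replicates 1 and 2 held both top places in 8 of 11. Their mean level in log2(FPKM + 1) was 2.47 to 3.03 in the mutant libraries, against 6.53, 4.78, 4.12 and 2.81 in wild type replicates 1 to 4. The mean level of the 8 tested salicylate genes was 2.56 to 2.91 in the mutant libraries, against 4.44, 3.71, 2.90 and 2.71 in wild type replicates 1 to 4. The lists differed in wild type replicate 3, whose touch level was above every mutant library while its salicylate level was within their range. All 11 touch genes had negative log2 fold changes (median -1.87), with 7 at an unadjusted p under 0.05, where 5.62% of all tested genes were lower, and 0 past limma's test. In 2 of the 11, CBF2 and WRKY40, every mutant library was under 1 FPKM, so they entered the test through wild type and had to differ. The authors' deposited table lists 7 of the 13 touch genes, all lower in the mutant, where it lists 3.69% of the genes of the expression table. CBF2 and WRKY40 are among the 7. Limma with library weights called 8 lower, where 1058 of all 17706 tested genes were called lower. When wild type was replicates 3 and 4 only, 9 of 10 tested were negative (median -0.72). Of them 4 had an unadjusted p under 0.05, where 519 of all 17635 genes tested were lower.

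CBF2, a cold and touch response factor, averaged 0.271 ± 0.143 FPKM in the mutant and 4.43 ± 3.18 FPKM in wild type (log2 fold change -1.87, limma adjusted p = 0.151), and the zinc finger gene ZAT12 averaged 3.41 ± 1.90 FPKM in the mutant and 35.9 ± 33.0 FPKM in wild type (log2 fold change -2.68, limma adjusted p = 0.152). Photosynthesis genes had a mean level of 10.02 to 10.32 in the mutant libraries. In wild type replicates 1 to 4 it was 9.87, 9.48, 10.17 and 9.53, so replicates 1 and 2 were not the highest. Their log2 fold changes were positive in 17 of 17 (median 0.43), with 0 past limma's test. At an unadjusted p under 0.05 there were 9, where 6.91% of all tested genes were higher. Limma with library weights called 9 higher, where 1265 of all 17706 tested genes were called higher. LHCB2.1 and LHCA4, light-harvesting proteins, had log2 fold changes of 0.58 and 0.46. Of the senescence list 1 gene was tested, SEN1 (log2 fold change 0.41), and of the list for flowers past stage 8 also 1, LAP6 (log2 fold change 0.11). The part of touch response, green tissue or flower stage in the salicylate values was not tested.

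**Figure D4:**
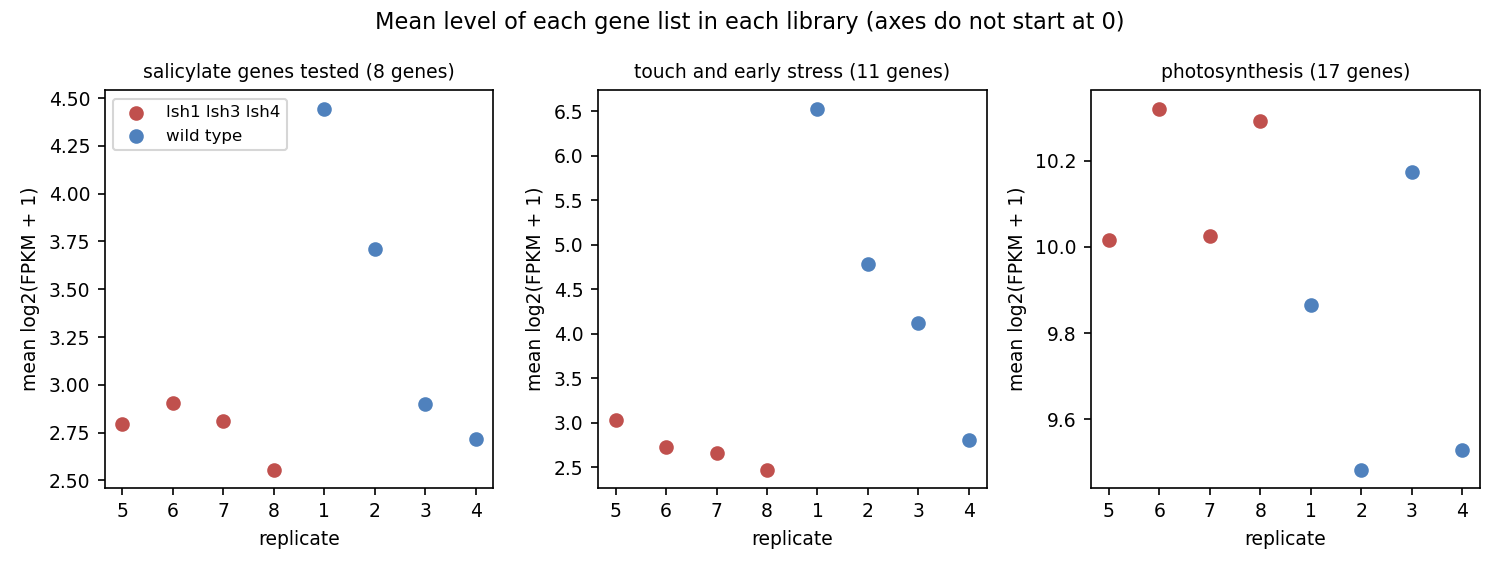
Mean log2(FPKM + 1) of the 8 tested salicylate genes, 11 touch and early stress genes and 17 photosynthesis genes in each library, with the 4 mutant libraries left of the 4 wild type libraries; each point is 1 library and the axes do not start at 0. Wild type replicates 1 and 2 are the highest in the first 2 panels (4.44 and 3.71 for salicylate genes, 6.53 and 4.78 for touch genes), and of these panels wild type replicate 3 is above all mutant libraries only for touch genes.

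Over the 8 libraries, the mean standardised profile of the tested salicylate genes was highest in wild type replicate 1. The 5 other tested genes closest to it, by root-mean-square distance of standardised log2(FPKM + 1) over the 8 libraries, were AT1G67890 (0.112), AT5G35735 (0.115), AT5G28630 (0.119), the purine permease gene PUP7 (AT4G18197, 0.133) and AT1G72910 (0.135), against a median distance of 1.32 over all tested genes. Of the salicylate genes themselves, SAG101 (0.266), NPR1 (0.286) and SARD1 (0.297) were closest to the mean, followed by PAD4 (0.357), EDS1 (0.414) and CBP60g (0.422). PR5 (1.42) and ICS1 (1.65) were farther away than the median gene. AT5G35735 had 2.25, 3.39, 3.63 and 2.22 FPKM in mutant replicates 5 to 8, against 44.7, 12.9, 4.45 and 1.69 FPKM in wild type replicates 1 to 4, so its levels followed the same order as those of CBP60g in wild type.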

How the data were processed

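Per the file headers, the authors deposited 1 FPKM value per gene and library. The tools RSEM and DESeq2 and the build TAIR10 are named, without versions or roles, per the submitters' processing notes. For the aligner, annotation and strand setting, nothing was stated in the labels. FPKM removes read totals, so depth and counting error are unknown. For 822 genes the authors' deposited table holds log2 fold changes with raw and adjusted p-value columns.

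The 17706 genes whose FPKM averaged at least 1 were compared on the log2(FPKM + 1) scale, 4 libraries against 4, with limma 3.58.1 (trend moderation, 2-sided, R 4.3.3). Benjamini-Hochberg adjustment ran over all of them, with a threshold of 0.05. Fold changes on this scale understate the change of low genes. For single genes an exact 2-sided permutation test over 70 relabellings was used. The code was tested on simulated data. All libraries had the same median-of-ratios factor (1.00), so the deposited FPKM already carry that scaling.

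The 10 genes and 16 other lists (120 genes) were chosen with earlier results of these data known. In each list up to 4 called genes are named, and where none was called the 2 of lowest p, besides homologues of the 10 genes and the 5 nearest profiles. Any other gene was named after its values were seen. Gene codes were matched to RefSeq TAIR10.1 (22154 found, 127 not), which also gave the promoters. The expression table holds no coordinates. Motifs were searched on both strands, and coding sequences were aligned pairwise. Settings varied were the pseudocount (0.1, 0.5), the filter (none, or FPKM averaging 5), the scaling (TPM, median-of-ratios, quantile), the moderation (robust), library weights and the libraries used (wild type replicates 3 and 4 only, or each left out in turn). Python 3.11.15 with matplotlib 3.10.9 made the plots.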

Additional observations from a re-analysis of the deposited data

Results flagged for a closer look

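In each group of 4 libraries the highest or lowest value was compared with its nearest neighbour, and 4 of 18 groups had a value far from the others. For independent, normally distributed values about 1 in 20 would be so. These values were FPKM without a log and the genes share the same libraries, so that rate need not hold here. Mutant replicate 5 was low for ICS1, at 6.11 FPKM, with 0.847 of the mutant range between it and the next library. Wild type replicate 3 was high for ICS1, at 7.46 FPKM (0.830 of the range). For SARD1, wild type replicate 1 stood at 39.1 FPKM (0.901 of the range), and for PR5, wild type replicate 3 stood at 37.9 FPKM (0.865 of the range). The ICS1 values span a narrow range, so its gaps are small in FPKM. Causes were not tested.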

How the results depend on the processing

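No paired analysis was possible because the groups share no replicate number. Of the 18 alternatives, library weights moved the members called lower to 3 and the other pathway genes called to 4 higher and 5 lower. Those higher were TGA1, TGA4, TGA6 and TGA7, and those lower NIMIN1, NPR4, NDR1, WRKY46 and WRKY60. The other 17 alternatives gave 0 for both sets. All genes called numbered 24 higher and 9 lower; they came to 7 and 5 without a filter, 14 and 5 with TPM, 1265 and 1058 with library weights, 0 and 0 with wild type replicates 3 and 4 only, and 0 to 79 and 0 to 25 when 1 library was left out (0 and 0 on leaving out wild type replicate 2, but 79 and 25 on leaving out replicate 3 of wild type). Under library weights EDS1 (-1.43), PAD4 (-1.68) and SAG101 (-0.80) passed limma's test; the weights rest mainly on 1 library a genotype. With wild type replicates 3 and 4 only, the log2 fold change reversed for EDS1 (0.20), PAD4 (0.18), ICS1 (-0.028), CBP60g (0.054) and PR5 (-0.23). Leaving out 1 library gave -1.24 to -0.44 for EDS1, -1.51 to -0.54 for PAD4, -0.87 to -0.44 for SAG101, 0.05 to 0.18 for ICS1, -1.33 to -0.31 for CBP60g, -2.30 to -0.82 for SARD1, -0.61 to -0.24 for NPR1 and -0.17 to 0.80 for PR5, whose sign turned without mutant replicate 6; the values nearest 0 for EDS1, PAD4, SAG101, CBP60g, SARD1 and NPR1 came without wild type replicate 1. SARD1 was -2.10 with a pseudocount of 0.5 and -2.52 with 0.1. CBP60g was not tested at a mean FPKM of 5. With 4 libraries a genotype and unknown depth, differences in genes near 1 FPKM, such as PR2 and SARD1 in the mutant, were little resolved. Other causes were not tested.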

Other observations

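Further genes near the pathway are described here. BSMT1, ACD6 and PR4 were picked out after their values were seen, whereas VSP2 and VSP1 are the 2 of lowest p in their list. BSMT1, which methylates salicylate, was listed at 3.83 FPKM in mutant replicate 8 and at 0.0825 FPKM or less in every other library. ACD6, a membrane protein that promotes salicylate-dependent defence, had 4.38 FPKM in mutant replicate 8, against 0.165 to 0.679 FPKM in the other mutant libraries and 0.145 to 0.617 FPKM in wild type. Among jasmonate and ethylene markers, the storage protein gene VSP2 averaged 843 ± 435 FPKM in the mutant and 411 ± 108 FPKM in wild type (log2 fold change 0.94, limma adjusted p = 0.332). Its neighbour VSP1 averaged 1468 ± 540 FPKM in the mutant and 2089 ± 512 FPKM in wild type (log2 fold change -0.55, limma adjusted p = 0.464). PR4, a chitin-binding protein gene, was under the level for testing, with 0.413 to 0.892 FPKM in the mutant and 1.25 to 1.5 FPKM in wild type, without overlap, the pattern for which it was picked (3.74% of all tested genes were lower without overlap).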
